A study of Homo sapiens with 9 samples.

Results

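The genes examined here were 10 genes of the major histocompatibility complex (MHC) class II pathway among the 20030 genes listed for each RNA-seq library. They were the invariant chain CD74, the regulators CIITA, RFX5 and RFXAP, the peptide loading chains HLA-DMA and HLA-DMB, and the peptide presenting chains HLA-DRA, HLA-DRB1, HLA-DPA1 and HLA-DPB1. Each was taken by its gene symbol. The genes were chosen by measured values, since HLA-DRB1 and HLA-DPB1 were already known to have more counts in MHCC97L-Oxa than in MHCC97L in these same libraries. All values of the 10 genes are therefore a description. No p-value is given for them, and the number that passed the fit over all genes is printed only beside the share of all genes that passed.

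MHC class II molecules are cell surface dimers of an alpha and a beta chain that show peptides from internalised proteins to CD4+ T cells. They are made mainly by B cells, dendritic cells and macrophages, and interferon gamma can switch them on in epithelial cells and hepatocytes. CIITA is the coactivator whose presence normally decides whether the class II genes and CD74 are transcribed, and it is held at their promoters by the RFX complex (RFX5, RFXAP and RFXANK), CREB1 and the NF-Y trimer. CD74 blocks the peptide groove of new dimers and guides them to endosomes, where cathepsins degrade it and the HLA-DM dimer exchanges its last fragment for peptide.

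MHCC97L is a human hepatocellular carcinoma (HCC) line with high metastatic potential, and its untreated wild-type cells gave 3 libraries. MHCC97L-Oxa, with 3 libraries, was grown under oxaliplatin, a platinum drug that crosslinks DNA, until stably resistant to 2 μmol/L. MHCC97L-Src, with 3 libraries, was grown under rising saracatinib, an inhibitor of SRC family kinases, until stably resistant to 4 μmol/L. Both resistant lines derive from MHCC97L and each is represented by 1 selected population, so an effect of the drug and a difference between populations cannot be told apart. The labels name no separate cultures for the libraries, so p-values measure the spread between these libraries, which may be technical. The study describes its RNA-seq comparisons as independent experiments, without tying libraries to cultures.

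Library totals ranged from 16970486 to 18209213 counts, and 3 counts, used here as the floor, corresponded to 0.165 to 0.177 CPM (counts per 1000000 counts of the library). MHCC97L replicate 1 stood apart. Its log2 CPM correlated with those of the other MHCC97L libraries at 0.859 and 0.916, against 0.969 to 0.990 within the resistant lines. Of the deviations of its genes from the mean of all libraries, 66.1% of the variance went with GC content and length, compared with 3.63% to 47.4% elsewhere. Folds of pathway genes against MHCC97L that moved by over 1.5 times without this library are therefore also given without it, as are those of the CD74, CIITA, RFX and HLA genes whose log2 fold change is given. The labelled liver origin was checked against its markers. Of 4 epithelial markers, the keratin KRT8 had 28881 to 69315 counts, whereas EPCAM had at most 10 counts in every library. CDH1 had too few counts to be tested between the resistant lines. ALB, AFP, APOB and TTR had 0 counts in all 9 libraries, and 7 of 9 hepatocyte markers had at most 10 counts in every library. The hepatocyte program of the label was thus not seen in any line.

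The promoter letters that recruit CIITA were read first, since the sequences show which of the 10 genes hold an exact match to the textbook class II layout near their start. That layout is an X box, bound by RFX, followed at a fixed distance by a Y box, bound by NF-Y. RefSeq promoters (GRCh38.p14, from 250 bases before to 50 bases after a gene's start) were found for 8 of the 10 genes. HLA-DRA and CIITA had no entry. The letters AGNNACNG (X core) and ATTGG or CCAAT (Y box) were searched on both strands, and the layout was taken as an X core followed on the gene's strand by a Y box starting 20 to 40 bases later. HLA-DRB1 and HLA-DMA held it. Capitals mark the X core and the Y box, and in CD74 the Y box alone. Before that Y box the CD74 window reads agaaacaa, which differs from the X core in its last letter only. A search for exact letters thus cannot show that CD74 lacks an X box.
HLA-DRB1: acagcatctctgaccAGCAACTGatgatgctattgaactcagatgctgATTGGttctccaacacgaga
HLA-DMA: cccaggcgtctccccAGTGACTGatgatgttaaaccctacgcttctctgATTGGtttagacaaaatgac
CD74: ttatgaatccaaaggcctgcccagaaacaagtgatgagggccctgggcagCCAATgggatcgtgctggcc
HLA-DOA: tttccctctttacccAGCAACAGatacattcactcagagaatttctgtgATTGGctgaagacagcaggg
The HLA-DRB1 window lies at chr6:32589875-32589942, the HLA-DMA window at chr6:32953157-32953225, the CD74 window at chr5:150412944-150413013 and the HLA-DOA window at chr6:33009639-33009707, all on the minus strand. From the start of the X core to the start of the Y box the distance was 33 bases in HLA-DRB1 and 34 bases in HLA-DMA. HLA-DOA, an inhibitor of HLA-DM that is not among the 10 genes, is shown because it carried the same spacing of 34 bases although no library held more than 1 count of it. The layout was found in 384 of 35116 promoters of the same length (1.09%), the Y box in 34.6% and the X core in 48.4%. Of the 6 genes among CD74 and the HLA members with a promoter entry, 5 held a Y box and 2 the full layout. These numbers count genes, since HLA-DPA1 had more than 1 promoter, whereas the shares before them count promoters. The other class II genes HLA-DRB5, HLA-DQA1 and HLA-DQB1 also held the full layout. The layout was thus present both in genes that were measured at high and in genes that were measured near 0, and a match of letters is a description, not a bound site.

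CD74 lies at chr5:150401637-150412929 on the minus strand (GRCh38, GENCODE 29). It had 20, 22 and 30 counts in the MHCC97L libraries, 526, 473 and 418 in those of MHCC97L-Oxa, and 109, 160 and 92 in those of MHCC97L-Src. The libraries of the 3 lines did not overlap, and every MHCC97L-Oxa library stood above every MHCC97L-Src library. The mean was 1.35 ± 0.284 CPM in MHCC97L, 26.3 ± 2.68 CPM in MHCC97L-Oxa and 6.98 ± 2.18 CPM in MHCC97L-Src (SD, n = 3 each).

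Relative to MHCC97L, CD74 had a log2 fold change of 4.29 (SE 0.38) in MHCC97L-Oxa and of 2.46 (SE 0.49) in MHCC97L-Src. Without MHCC97L replicate 1 these values were 4.22 and 2.34. As ratios of mean CPM the differences were 19.5-fold and 5.18-fold. MHCC97L-Src lay 1.84 (SE 0.25) below MHCC97L-Oxa on the log2 scale.

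**Figure D1:**
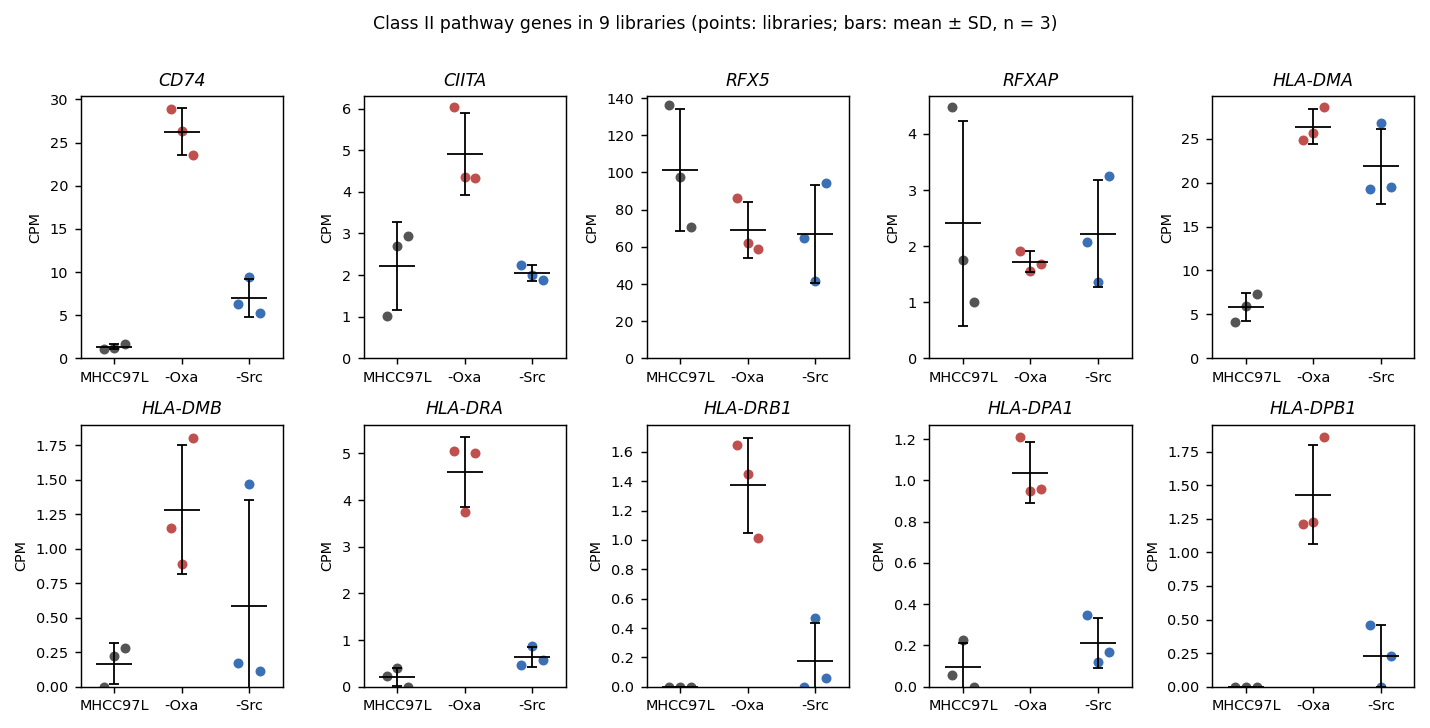
Expression of the 10 genes in CPM (linear axes from 0, a scale of its own in each panel). Points are single libraries, and bars give the mean ± SD of the 3 libraries of a line. Lower bars that would fall below 0 are cut at the axis. CD74 and the HLA chains were highest in MHCC97L-Oxa by their means, whereas the RFX5 and RFXAP libraries of the 3 lines overlapped.

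Both HLA-DM chains, which edit the peptides of the other class II dimers, were measured, but at very different depth. HLA-DMA (chr6:32948613-32969094, minus strand) had 74, 105 and 132 counts in the MHCC97L libraries, 453, 460 and 508 in those of MHCC97L-Oxa, and 334, 455 and 342 in those of MHCC97L-Src. All libraries of both resistant lines stood above all MHCC97L libraries, and 1 of the MHCC97L-Src libraries lay within the range of MHCC97L-Oxa. HLA-DMA averaged 5.82 ± 1.58 CPM in MHCC97L, 26.4 ± 1.96 CPM in MHCC97L-Oxa and 21.8 ± 4.30 CPM in MHCC97L-Src (SD, n = 3 each).

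The log2 fold change of HLA-DMA against MHCC97L was 2.18 (SE 0.36) in MHCC97L-Oxa and 1.98 (SE 0.42) in MHCC97L-Src, or 2.05 and 1.79 without MHCC97L replicate 1. The difference between the resistant lines was -0.21 (SE 0.20). HLA-DMA and CD74 thus shared the higher level in both resistant lines, and their estimated gaps between the resistant lines were -0.21 and -1.84.

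HLA-DMB (chr6:32934629-32941070, minus strand) had 0, 4 and 5 counts in the MHCC97L libraries, 21, 16 and 32 in those of MHCC97L-Oxa, and 3, 25 and 2 in those of MHCC97L-Src. The MHCC97L-Oxa libraries stood above all MHCC97L libraries, but the MHCC97L-Src libraries overlapped with both other lines, and its replicate 2 alone held most of the counts of the line. The log2 fold change was 2.88 (SE 0.80) for MHCC97L-Oxa against MHCC97L, or 2.37 without MHCC97L replicate 1, and -1.05 (SE 0.76) for MHCC97L-Src against MHCC97L-Oxa. Leaving out MHCC97L-Src replicate 2 moved the latter value to -3.11, so it was decided by that library.

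The 4 presenting chains were near the floor in MHCC97L. HLA-DRA, the alpha chain shared by all HLA-DR dimers (chr6:32439842-32445046, plus strand), had 4, 7 and 0 counts in the MHCC97L libraries, 92, 67 and 89 in those of MHCC97L-Oxa, and 8, 15 and 10 in those of MHCC97L-Src. Its libraries fell into 3 separate ranges, in the order seen for CD74. The log2 fold change against MHCC97L was 4.44 (SE 0.81) in MHCC97L-Oxa and 4.55 without MHCC97L replicate 1. It ranged from 3.88 without MHCC97L replicate 3, the library at 0, to 5.42 without MHCC97L replicate 2. MHCC97L-Src lay 2.78 (SE 0.35) below MHCC97L-Oxa, and at 0.638 ± 0.220 CPM its mean was 3.08 times that of MHCC97L (0.207 ± 0.198 CPM, SD, n = 3 each), a ratio that rests on a few counts.

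HLA-DRB1, the polymorphic beta chain of HLA-DR (chr6:32578769-32589848, minus strand), was at 0 in all MHCC97L libraries, at 30, 26 and 18 counts in MHCC97L-Oxa, and at 0, 8 and 1 in MHCC97L-Src. With 3 counts per library as the floor, MHCC97L-Oxa was at least 8.13-fold higher than MHCC97L. MHCC97L-Src replicates 1 and 3 lay below the floor, so no fold is given. Counts of HLA-DRB1 are uncertain, because HLA-DRB5 is nearly identical to it and reads could be split between the genes. HLA-DRB5 was at 0 in MHCC97L, at 11, 10 and 13 counts in MHCC97L-Oxa, and at 4, 1 and 0 in MHCC97L-Src, the same order of lines.

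HLA-DPA1 (chr6:33064569-33080775, minus strand), the alpha chain of HLA-DP, had 1, 4 and 0 counts in the MHCC97L libraries, 22, 17 and 17 in those of MHCC97L-Oxa, and 6, 2 and 3 in those of MHCC97L-Src. HLA-DPB1 (chr6:33075926-33087201, plus strand), its beta chain, had 0 counts in each MHCC97L library, 22, 22 and 33 in MHCC97L-Oxa, and 8, 0 and 4 in MHCC97L-Src. For both chains the MHCC97L-Oxa libraries stood above all other libraries, and the MHCC97L-Src libraries overlapped with MHCC97L. HLA-DPB1 was at least 8.49-fold higher in MHCC97L-Oxa than in MHCC97L, and no fold is given for MHCC97L-Src, where 1 library was at 0. The log2 fold change of HLA-DPA1 in MHCC97L-Oxa was 3.38 (SE 0.79), or 3.18 without MHCC97L replicate 1, and it ranged from 2.83 without MHCC97L replicate 3 to 5.02 without MHCC97L replicate 2. The genes of these chains overlap on opposite strands, and the strand setting of the counting is not given in the sources used here, so reads in the overlap may have been assigned to either.

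Summed over the 4 presenting chains, expression was 0.301 ± 0.310 CPM in MHCC97L, 8.44 ± 0.940 CPM in MHCC97L-Oxa and 1.26 ± 0.225 CPM in MHCC97L-Src (SD, n = 3 each). The libraries of the lines did not overlap. The ratio of mean CPM between MHCC97L-Oxa and MHCC97L-Src was 6.72 for this sum, 3.76 for CD74 and 1.21 for HLA-DMA. CD74 and the 6 HLA genes all followed the order MHCC97L-Oxa, MHCC97L-Src, MHCC97L by their means, although HLA-DMB, HLA-DRB1, HLA-DPA1 and HLA-DPB1 did not separate MHCC97L-Src from MHCC97L.

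The regulators did not share this order. CIITA (chr16:10866222-10943021, plus strand) had 18, 48 and 53 counts in the MHCC97L libraries, 110, 78 and 77 in those of MHCC97L-Oxa, and 39, 34 and 33 in those of MHCC97L-Src. All MHCC97L-Oxa libraries were above all other libraries, and the MHCC97L-Src libraries lay inside the range of MHCC97L. The means were 2.22 ± 1.05 CPM, 4.91 ± 0.980 CPM and 2.04 ± 0.190 CPM, in that order of lines (SD, n = 3 each).

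CIITA had a log2 fold change of 1.13 (SE 0.51) in MHCC97L-Oxa and of -0.07 (SE 0.52) in MHCC97L-Src relative to MHCC97L. Without MHCC97L replicate 1, the lowest MHCC97L library, these values were 0.85 and -0.41. CIITA was 1.21 (SE 0.27) lower in MHCC97L-Src than in MHCC97L-Oxa on the log2 scale. The higher CD74 and HLA-DMA of MHCC97L-Src were therefore measured at a CIITA level that was not above that of MHCC97L. CIITA starts from several promoters, and gene counts do not separate its transcripts.

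RFX5, the DNA binding subunit of the RFX complex (chr1:151340640-151347357, minus strand), had 2404, 1728 and 1269 counts in the MHCC97L libraries, 1569, 1113 and 1043 in those of MHCC97L-Oxa, and 1123, 709 and 1659 in those of MHCC97L-Src. RFXAP, an accessory subunit (chr13:36819224-36829104, plus strand), had 79, 31 and 18 counts in the MHCC97L libraries, 35, 28 and 30 in those of MHCC97L-Oxa, and 36, 23 and 57 in those of MHCC97L-Src. For both genes the libraries of all 3 lines overlapped, and MHCC97L replicate 1 held the highest value. The log2 fold change of RFX5 was -0.52 (SE 0.28) in MHCC97L-Oxa and -0.54 (SE 0.32) in MHCC97L-Src, and the values were -0.23 and -0.30 without that library. For RFXAP the values were -0.42 (SE 0.55) and -0.03 (SE 0.59), and they turned to 0.38 and 0.72 without it.

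**Figure D2:**
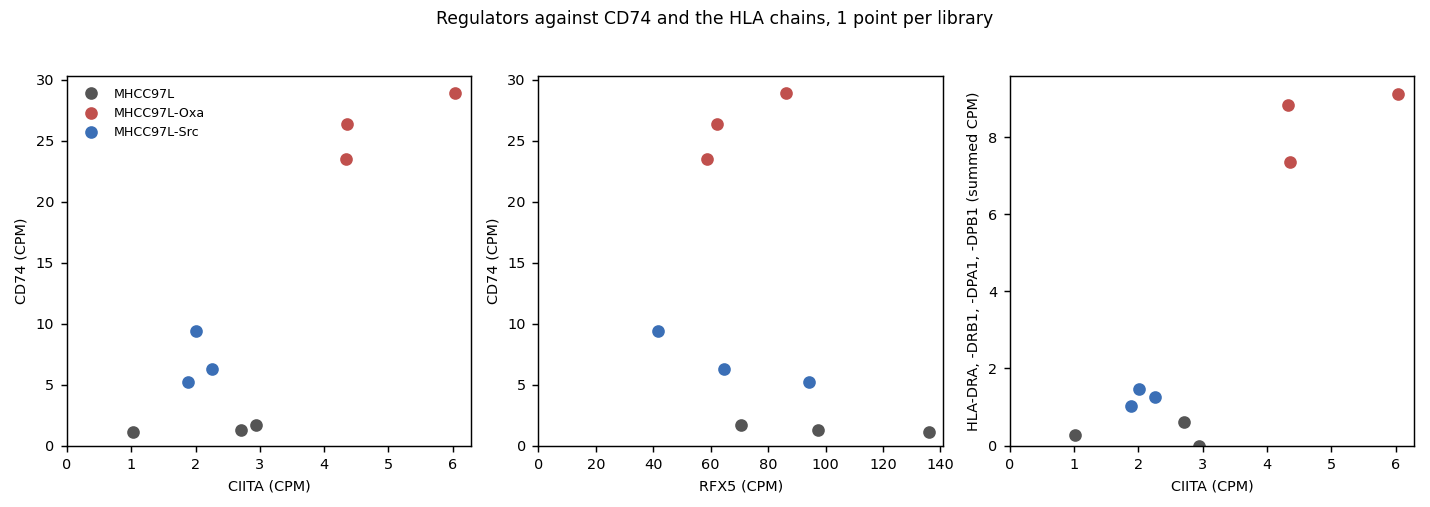
CIITA or RFX5 (horizontal axes, CPM) against CD74 or the sum of HLA-DRA, HLA-DRB1, HLA-DPA1 and HLA-DPB1 (vertical axes, CPM), with 1 point per library and a color per line. MHCC97L-Src libraries (CD74 from 5.23 to 9.43 CPM) lie above the MHCC97L libraries (1.13 to 1.67 CPM) at CIITA values inside the MHCC97L range, and MHCC97L-Oxa is highest in both CIITA and CD74.

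Per length, the order of the genes also changed between lines. In MHCC97L the deposited FPKM (fragment counts scaled to gene length and library size) placed RFX5 first at 17.0, followed by HLA-DMA at 4.74, RFXAP at 0.987 and CD74 at 0.312, with no overlap of libraries between these neighbours. In MHCC97L-Oxa the order was HLA-DMA at 20.8, RFX5 at 11.4, CD74 at 6.46, HLA-DRA at 2.91 and HLA-DRB1 at 1.36, again with no overlap between neighbours, and from RFXAP at 0.721 downwards the libraries of each gene overlapped with those of the next. In MHCC97L-Src, HLA-DMA at 17.2 and RFX5 at 11.3 overlapped, as did CD74 at 1.63 and RFXAP at 0.912, and HLA-DRA at 0.397 and all genes below it overlapped with the next. CIITA had 0.302 in MHCC97L-Oxa, the next to last place, and CD74 exceeded HLA-DRA in every line. The FPKM do not derive from the counts alone, since HLA-DRB1 in MHCC97L-Src replicate 1 was listed at 0.0458 FPKM with 0 counts.

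**Figure D3:**
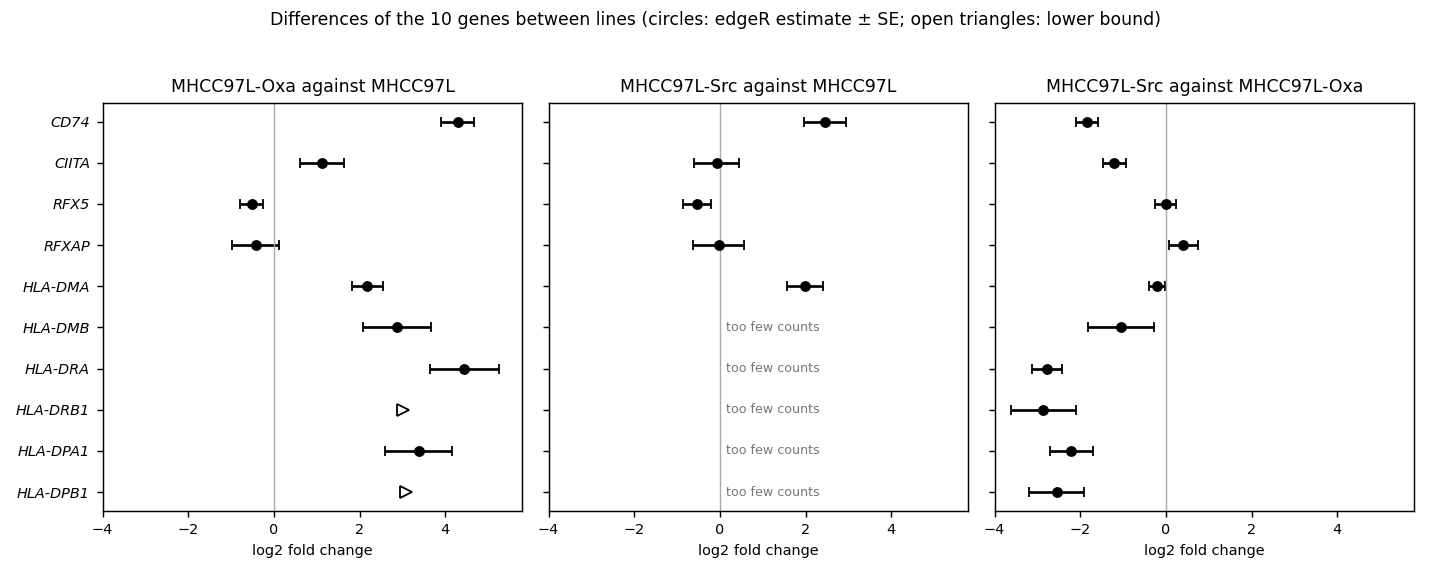
Log2 fold changes of the 10 genes in the 3 comparisons of lines. Circles are edgeR estimates with their SE from 3 libraries per line, open triangles are lower bounds against MHCC97L libraries at 0 counts with a floor of 3 counts per library, and genes with too few counts have no value. CD74 and the HLA genes lie to the right of 0 in MHCC97L-Oxa against MHCC97L (CD74 at 4.29), CIITA lies near 0 in MHCC97L-Src against MHCC97L (-0.07), and RFX5 lies near 0 between the resistant lines (-0.01).

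Read against all genes, edgeR called 0.953% of 12064 genes at an adjusted p under 0.05 between MHCC97L-Oxa and MHCC97L, and 0.771% as higher in MHCC97L-Oxa. All 10 genes were tested there, and CD74, HLA-DMA, HLA-DRB1 and HLA-DPB1 passed, of which HLA-DRB1 and HLA-DPB1 were used to choose the genes, so nothing is read from this number. HLA-DMB and the presenting chains also met the filter on low counts only through the MHCC97L-Oxa libraries. In 19.1% of all genes tested every MHCC97L-Oxa library stood above every MHCC97L library, which was the case for 8 of the 10, all but RFX5 and RFXAP. Without MHCC97L replicate 3, or without any 1 library of MHCC97L-Oxa, the number passing fell to 0 by edgeR. Each of these fits called 2 genes in all. The number was 6 without MHCC97L replicate 1, where 2251 of 12168 genes were called. It was 7 without MHCC97L replicate 2, where 2705 of 12256 were called. The number passing thus moved with the calls over all genes. With all libraries kept, DESeq2 called 5 of the 10, beside 893 of 12064 genes. In fits with 1 library left out, 7 to 8 had an unadjusted p under 0.05. The share of all genes at that threshold is not given, so nothing is read from this range. The median log2 fold change was 3.13 over the 10 genes and -0.19 over all genes tested. HLA-DRB1 and HLA-DPB1, used to choose the genes, enter the first median with 0 counts in MHCC97L, so nothing is read from it.

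Between MHCC97L-Src and MHCC97L the background was 2.13% of 12037 genes called, 1.43% called as higher in MHCC97L-Src, and 18.3% with every MHCC97L-Src library above every MHCC97L library. Only CD74, CIITA, RFX5, RFXAP and HLA-DMA had enough counts to be tested, and CD74 passed. CD74 and HLA-DMA had libraries that did not overlap. The 5 HLA genes left out by the filter on low counts were HLA-DMB and the presenting chains. The number passing was 0 by edgeR without MHCC97L replicate 3 or any 1 library of MHCC97L-Src. Over all genes these fits called 22 without MHCC97L replicate 3 and 27 to 69 without 1 MHCC97L-Src library. The number passing was 2 without MHCC97L replicate 1, where 672 of 12171 genes were called, or replicate 2, where 3419 of 12288 were. With all libraries kept, DESeq2 called 2, beside 2114 of 12037 genes. In fits with 1 library left out, 2 to 3 had an unadjusted p under 0.05. The share of all genes at that threshold is not given, so nothing is read from this range. The median log2 fold change was -0.03 over the 5 genes tested and -0.16 over all genes.

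Between the resistant lines 4.64% of 11994 genes were called, 2.52% as lower in MHCC97L-Src, and in 14.4% every MHCC97L-Src library stood below every MHCC97L-Oxa library. All 10 genes were tested. CD74, CIITA, HLA-DRA and HLA-DPA1 passed as lower in MHCC97L-Src, and these together with HLA-DRB1 and HLA-DPB1 had libraries that did not overlap. HLA-DMB and the presenting chains met the filter on low counts only through the MHCC97L-Oxa libraries, where they are high. Nothing is therefore read from the passing of HLA-DRA and HLA-DPA1. The number passing was 2 when any 1 MHCC97L-Oxa library or MHCC97L-Src replicate 1 was left out, in fits that called 167 to 243 genes in all. It was 6 without MHCC97L-Src replicate 2, where 1033 of 12140 genes were called, or replicate 3, where 1617 of 12121 were. The median log2 fold change was -1.53 over the 10 genes and -0.02 over all genes. The members were chosen on the first of these contrasts and the comparisons share libraries, so nothing further is read from these counts and medians.

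Across the 9 libraries, log2 CPM of HLA-DMA correlated with that of CD74 at a Pearson r of 0.92, HLA-DRB1 at 0.91, HLA-DRA at 0.91, HLA-DPB1 and HLA-DPA1 at 0.85 and HLA-DMB at 0.82. CIITA reached 0.74, RFXAP -0.23 and RFX5 -0.58. The points are 3 lines of 3 libraries each, so the values describe the order of the lines, and no p is given. Among 12281 genes HLA-DMA ranked at 96 by its likeness to CD74 and CIITA at 1129. The 5 genes outside the pathway set that were most like CD74 were TMEM91 (r = 0.99), NKD2, an inhibitor of Wnt signaling (0.98), MAST1 (0.98), TMEM98 (0.98) and TREM1, a receptor known from myeloid cells (0.98). TREM1 had 0, 0 and 1 counts in the MHCC97L libraries, 131, 96 and 105 in those of MHCC97L-Oxa, and 43, 25 and 23 in those of MHCC97L-Src.

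The rest of the pathway was examined with 8 lists of other genes, of which 60 genes were tested between MHCC97L-Oxa and MHCC97L, 59 between MHCC97L-Src and MHCC97L, and 58 between the resistant lines. Of the other class II genes, 7 of 9 were listed and 0 had enough counts for a test in any comparison. HLA-DQA2 and HLA-DQB2 were at 0 throughout, and HLA-DQA1 held 1 count in 1 library. HLA-DQB1 was at 0 in MHCC97L, at 3, 1 and 1 counts in MHCC97L-Oxa, and at 0, 0 and 4 in MHCC97L-Src, so its MHCC97L-Oxa libraries lay above those of MHCC97L but not above the floor of 3 counts. HLA-DOB, an inhibitor of HLA-DM, had 10, 3 and 2 counts in the MHCC97L libraries, 4, 0 and 2 in those of MHCC97L-Oxa, and 8, 3 and 2 in those of MHCC97L-Src. HLA-DQ and HLA-DO were thus at no more than a few counts in nearly all libraries, and they were not tested at this depth.

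Of the 16 class II promoter factors and the 4 tested RFX family genes, 0 passed edgeR at an adjusted p under 0.05 in any comparison. Between MHCC97L-Oxa and MHCC97L 4 of the 16 had an unadjusted p under 0.05 and DESeq2 called 1, between MHCC97L-Src and MHCC97L these numbers were 3 and 2, and between the resistant lines 4 and 0. For the RFX family both numbers were 0 in each comparison. Over all genes DESeq2 called 893 of 12064, 2114 of 12037 and 839 of 11994. The share of all genes at an unadjusted p under 0.05 is not given, so nothing is read from those numbers. The median log2 fold change of the 16 factors was -0.63 in MHCC97L-Oxa and -0.51 in MHCC97L-Src relative to MHCC97L, or -0.09 and -0.23 without MHCC97L replicate 1. RFXANK, the third subunit of the RFX complex, had log2 fold changes of 0.23 (SE 0.26, adjusted p = 0.597) and 0.59 (SE 0.30, adjusted p = 0.218). CREB1, which binds next to RFX at the X box, had -1.89 (SE 0.72, adjusted p = 0.205) and -1.82 (SE 0.69, adjusted p = 0.134), which became -0.81 and -0.79 without MHCC97L replicate 1. EZH2, a histone methyltransferase known to silence CIITA in tumor cells, had -1.36 (SE 0.58, adjusted p = 0.219) and -1.04 (SE 0.58, adjusted p = 0.247), and without that library it had -0.18 and 0.08, the latter with the sign turned.

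Interferon gamma signaling is the usual route to CIITA outside of immune cells. IFNG itself had 0 counts in all 9 libraries. DESeq2 called 2, 4 and 1 of the signaling genes in the 3 comparisons, beside 893 of 12064, 2114 of 12037 and 839 of 11994 genes. By edgeR, SOCS3, a feedback inhibitor of JAK kinases, was the only signaling gene called in a comparison. It had 973, 1471 and 1429 counts in the MHCC97L libraries, 4380, 4221 and 3886 in those of MHCC97L-Oxa, and 4950, 5738 and 4795 in those of MHCC97L-Src. Both resistant lines lay above MHCC97L without overlap. SOCS3 rose by a log2 fold change of 1.68 (SE 0.24, adjusted p = 0.028) in MHCC97L-Oxa and of 2.11 (SE 0.28, adjusted p = 0.012) in MHCC97L-Src. The call in MHCC97L-Oxa was lost without MHCC97L replicate 3 or any 1 MHCC97L-Oxa library (adjusted p up to 0.22), and that in MHCC97L-Src without MHCC97L replicate 3 or MHCC97L-Src replicate 2 (adjusted p up to 0.062).

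JAK1, a kinase of the interferon gamma receptor, had 3932, 419 and 1079 counts in MHCC97L, where replicate 1 lay far above all other libraries, and between 244 and 635 in the resistant lines. Its log2 fold changes of -1.66 (SE 0.66, adjusted p = 0.21) and -2.30 (SE 0.67, adjusted p = 0.102) did not pass, and they became -0.39 and -1.07 without that library. In MHCC97L-Src JAK1 passed in 5 of 17 settings, among them edgeR with the replicate block (adjusted p = 0.0028). That fit called 988 of 12037 genes, and the replicate numbers did not pair the libraries. IRF1, which interferon gamma induces and which acts on a CIITA promoter, had log2 fold changes of 0.13 (SE 0.25, adjusted p = 0.770) and 0.31 (SE 0.28, adjusted p = 0.460).

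Of the endosomal processing genes, 8 were tested. CTSH, a lysosomal cysteine protease, had 26, 22 and 21 counts in the MHCC97L libraries, 57, 55 and 50 in those of MHCC97L-Oxa, and 83, 83 and 103 in those of MHCC97L-Src, with no overlap of lines. It rose in MHCC97L-Src (log2 fold change 2.07, SE 0.41, adjusted p = 0.044), while in MHCC97L-Oxa the value was 1.23 (SE 0.36, adjusted p = 0.165). The call in MHCC97L-Src was lost without MHCC97L replicate 3 or any 1 MHCC97L-Src library, with the GC and length offsets in the replicate block, and on log2 FPKM (adjusted p up to 0.185). CTSS, the cathepsin that finishes the degradation of CD74 in antigen presenting cells, had at most 5 counts in any library. CTSL, another lysosomal cathepsin, had log2 fold changes near 0 (0.00 and 0.16, adjusted p = 0.990 and 0.636).

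IFI30, the lysosomal thiol reductase that opens disulfide bonds of antigens, and CTSD, an aspartic protease, differed between the resistant lines. IFI30 had 1903, 2973 and 2992 counts in the MHCC97L libraries, 2178, 2008 and 2006 in those of MHCC97L-Oxa, and 4272, 4211 and 4346 in those of MHCC97L-Src. It was higher in MHCC97L-Src than in MHCC97L-Oxa by a log2 fold change of 1.16 (SE 0.11, adjusted p = 0.00025), the opposite direction to CD74 and the presenting chains, and the call held in all 17 settings tried. CTSD was higher in the same comparison by 0.73 (SE 0.13, adjusted p = 0.012). Its call was lost without any 1 MHCC97L-Oxa library, without MHCC97L-Src replicate 1 and in the fit over all lines (adjusted p up to 0.414).

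MHC class I genes, which present peptides from inside the cell to CD8+ T cells, were measured at far higher counts than class II genes. HLA-B had 2416, 3507 and 3792 counts in the MHCC97L libraries, 9597, 8104 and 9805 in those of MHCC97L-Oxa, and 10110, 12090 and 9731 in those of MHCC97L-Src. It rose by a log2 fold change of 1.49 (SE 0.25, adjusted p = 0.041) in MHCC97L-Oxa and of 1.83 (SE 0.29, adjusted p = 0.020) in MHCC97L-Src. Of 15 class I genes tested, 1 passed edgeR in MHCC97L-Oxa and 2 in MHCC97L-Src, beside 0.953% and 2.13% of all genes. The medians were 0.67 and 0.95. By DESeq2 6 and 9 passed, beside 893 of 12064 and 2114 of 12037 genes. In each resistant line 9 of the 15 had every library above those of MHCC97L, beside 19.1% and 18.3% of all genes. At an unadjusted p under 0.05 the numbers were 8 and 11, and the share of all genes is not given.

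HLA-B in MHCC97L-Oxa lost its call without MHCC97L replicate 3 or any 1 MHCC97L-Oxa library (adjusted p up to 0.257). In MHCC97L-Src it lost its call without MHCC97L replicate 3 or any 1 MHCC97L-Src library (adjusted p up to 0.087). Between the resistant lines 0 of 14 class I genes passed edgeR, beside 4.64% of all genes, and 0 passed DESeq2. At an unadjusted p under 0.05 there were 4, with no share of all genes given. The difference of HLA-B was 0.33 (SE 0.15, adjusted p = 0.258). NLRC5, the class I counterpart of CIITA, had log2 fold changes of -0.55 (SE 0.20, adjusted p = 0.201) and -0.18 (SE 0.24, adjusted p = 0.626) relative to MHCC97L.

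CD74 is also a surface receptor for the cytokine MIF, together with CD44 and the chemokine receptors CXCR2 and CXCR4. CXCR4 had 1426, 1445 and 992 counts in the MHCC97L libraries, 3574, 2777 and 2482 in those of MHCC97L-Oxa, and 3899, 2810 and 5056 in those of MHCC97L-Src. The libraries of both resistant lines lay above those of MHCC97L. CXCR4 rose in MHCC97L-Src (log2 fold change 1.70, SE 0.26, adjusted p = 0.019), and the value in MHCC97L-Oxa was 1.19 (SE 0.24, adjusted p = 0.067). The call was lost without MHCC97L replicate 3 or any 1 MHCC97L-Src library (adjusted p up to 0.094). MIF did not pass (0.73, adjusted p = 0.216, and 0.85, adjusted p = 0.159), nor did CD44 (0.53, adjusted p = 0.204, and 0.53, adjusted p = 0.163), and CXCR2 had at most 2 counts.

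Among costimulatory ligands, which antigen presenting cells show beside class II molecules, CD86 was at 0 in all libraries and CD80 held 1 count in 1 library. CD83, a surface protein that stabilises class II on dendritic cells, had 664, 963 and 850 counts in the MHCC97L libraries, 1320, 1439 and 1377 in those of MHCC97L-Oxa, and 2036, 1823 and 2271 in those of MHCC97L-Src, with no overlap of lines. It rose in MHCC97L-Src relative to MHCC97L (log2 fold change 1.40, SE 0.26, adjusted p = 0.033) and was higher there than in MHCC97L-Oxa (0.67, SE 0.11, adjusted p = 0.007). The value in MHCC97L-Oxa was 0.73 (SE 0.24, adjusted p = 0.192). The first call was lost without MHCC97L replicate 3 or any 1 MHCC97L-Src library and with the GC and length offsets in the replicate block (adjusted p up to 0.158), and the second without any 1 MHCC97L-Oxa library, without MHCC97L-Src replicate 1 and in the fit over all lines (adjusted p up to 0.239).

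**Figure D4:**
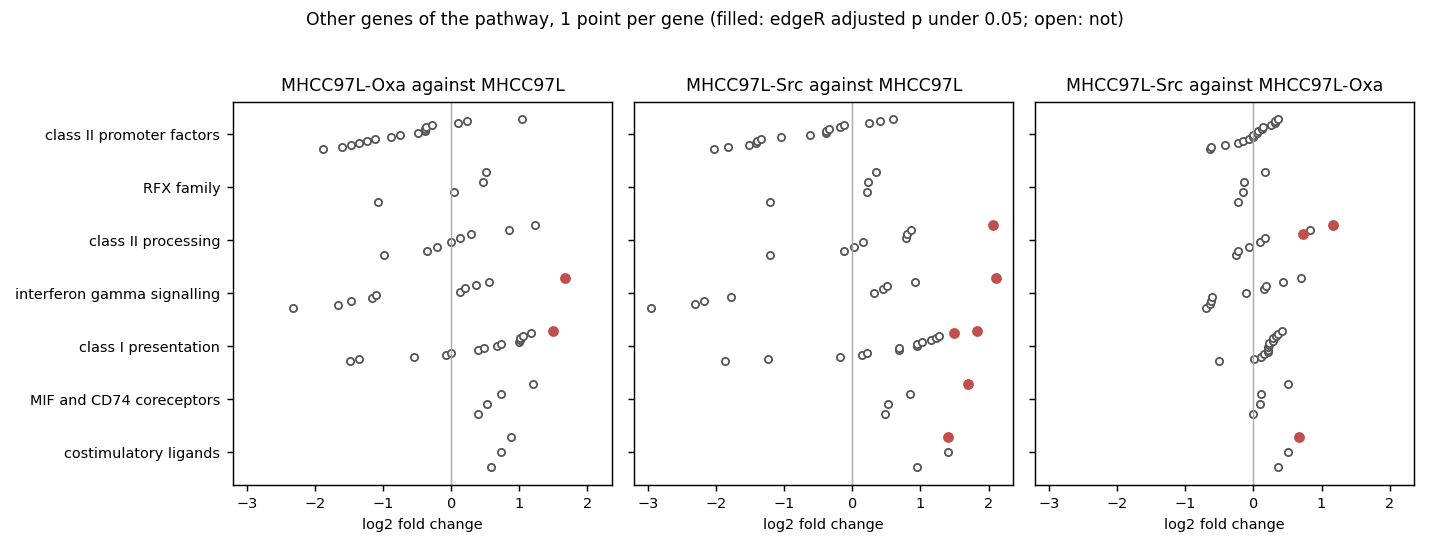
Log2 fold changes of the tested pathway genes outside the 10, with 1 point per gene and a row per list. Filled points passed edgeR at an adjusted p under 0.05 and open points did not. The class II promoter factors and the RFX family have open points only, and filled points include SOCS3 at 1.68 and HLA-B at 1.49 in MHCC97L-Oxa against MHCC97L and IFI30 at 1.16 between the resistant lines.

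Over the lists together, 2 of 60 genes passed in MHCC97L-Oxa (SOCS3 and HLA-B), beside 0.953% of all genes, and 6 of 59, beside 2.13%, in MHCC97L-Src (among them CTSH, SOCS3, HLA-B, CXCR4 and CD83), all higher than in MHCC97L. Between the resistant lines 3 of 58 passed (CTSD, IFI30 and CD83), beside 4.64% of all genes, so that this number is near the background, and all were higher in MHCC97L-Src. DESeq2 called 11, 18 and 5 of the listed genes, beside 893 of 12064, 2114 of 12037 and 839 of 11994 genes. The medians were 0.11, 0.24 and 0.13, beside -0.19, -0.16 and -0.02 over all genes tested.

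Immune cells that normally make class II molecules were checked by their markers. Of 23 B cell, myeloid and dendritic cell markers, 9 had 0 counts in all 9 libraries, among them the defining markers PTPRC, MS4A1, PAX5, LYZ, FLT3 and CD1C, and 17 had at most 10 counts in every library. Without CD68, CSF1R and CD14, which were the higher ones, the summed level was 1.84 to 2.10 CPM in MHCC97L, 2.51 to 3.19 CPM in MHCC97L-Oxa and 1.65 to 3.40 CPM in MHCC97L-Src. The myeloid list summed to 59.9 to 93.6 CPM in MHCC97L, 157 to 159 CPM in MHCC97L-Oxa and 80.02 to 99.64 CPM in MHCC97L-Src. Most of this sum was CD68, a lysosomal protein that many cells express, with CSF1R and CD14 as smaller parts. CD14, a receptor for bacterial lipopolysaccharide, had 16, 18 and 20 counts in the MHCC97L libraries, 91, 79 and 87 in those of MHCC97L-Oxa, and 97, 104 and 100 in those of MHCC97L-Src, and rose in both (log2 fold change 2.24, SE 0.39, adjusted p = 0.043, and 2.58, SE 0.43, adjusted p = 0.024). CD68 and the class II genes were both highest in MHCC97L-Oxa, and the part of these markers in the class II values was not tested. These are bulk libraries, in which more cells with class II transcripts and more transcripts per cell cannot be told apart.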

How the data were processed

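RNA-seq of 9 libraries was examined, 3 for each line. Per the labels, mRNA was enriched with oligo(dT) and sequenced as stranded paired-end libraries, and the submitters' processing notes name Trimmomatic 0.36, HISAT2 2.2.1.0 and the build GRCh38.p12. The deposited table of raw counts per gene was made by the authors with a counting program whose name and strand setting are not given in the sources used here. The deposited FPKM were normalized by the authors for library size and gene length. No column was left unused (0 of other series). Gene positions are from GENCODE 29.

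Each pair of lines was fitted on the raw counts of its 6 libraries with edgeR 4.0.16 in R 4.3.3 (filterByExpr with its defaults, TMM, quasi-likelihood test, Benjamini-Hochberg over all genes tested, called at an adjusted p under 0.05). Each SE was derived from the log2 fold change and the root of its F statistic. CPM are counts per 1000000 counts of the library. A gene at 0 in every library of a line was set to a floor of 3 counts per library. Likeness used log2 CPM with a prior count of 2, among genes with at least 10 counts in at least 3 libraries.

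The 10 genes and all gene lists were chosen with earlier results of these data known. Named are the 10 genes, genes of the lists that passed or define a list, and the 5 genes most like CD74. Some listed genes are not reported here. Alternatives were DESeq2 1.42.0, limma 3.58.1 on log2(FPKM + 1) and log2(FPKM + 0.1), other scalings and filters, all 9 libraries in one fit, the replicate number as a block, GC and length offsets (19343 of 20030 genes had both values), and leaving out each library. Fits were tested on simulated data. A chi-square test found no libraries that agree within sampling noise (6.57 to 295 per degree of freedom), so none was counted as deposited again. The libraries were compared for shared numbers, and the same numbers did not pair them.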

Additional observations from a re-analysis of the deposited data

Results flagged for a closer look

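The fit between the resistant lines tests whether the change from MHCC97L differs between them, since both share the MHCC97L libraries. It called 7 of the listed genes outside the 10, and no cause was tested. IFI30 was higher in MHCC97L-Src by a log2 fold change of 1.16, CTSD by 0.73 and CD83 by 0.67, beside the CD74 and presenting chain genes that were lower there. Of the marker genes, the keratins KRT8 and KRT18 were higher in MHCC97L-Src by 0.87 and 0.91. CD68, a lysosomal protein, had a difference of -0.75 (adjusted p = 0.012) and CSF1R, the receptor for colony stimulating factor 1, of -1.57 (adjusted p = 0.013), both lower in MHCC97L-Src. CSF1R had 170, 233 and 221 counts in the MHCC97L libraries, 140, 134 and 129 in those of MHCC97L-Oxa, and 29, 56 and 39 in those of MHCC97L-Src, so its order of lines was not that of CD74.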

How the results depend on the processing

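Counts per line are few for the presenting chains, the MHCC97L libraries spread widely, and 3 libraries per line leave most calls to depend on 1 library. For the 10 genes and the 60 or fewer listed genes tested, the numbers called are given in the order MHCC97L-Oxa against MHCC97L, MHCC97L-Src against MHCC97L, and MHCC97L-Src against MHCC97L-Oxa. The 10 genes had 4, 1 and 4 calls in the reported fits, and the listed genes 2, 6 and 3. Calls over all genes in the same settings are given below, and the numbers here can only be read beside them. The 10 genes had 5, 2 and 5 with DESeq2 size factors, 4, 1 and 4 with total counts, 5, 2 and 6 with no filter on low counts, 5, 2 and 6 with DESeq2, 6, 2 and 1 with all 9 libraries in one fit, 5, 2 and 4 on log2(FPKM + 1), 6, 2 and 5 on log2(FPKM + 0.1), and 6, 2 and 6 with GC content and gene length offsets. The listed genes had 2, 6 and 3 with both other scalings, 3, 10 and 3 with no filter, 11, 18 and 5 with DESeq2, 7, 21 and 1 with all 9 libraries in one fit, 5, 5 and 3 on log2(FPKM + 1), 5, 6 and 3 on log2(FPKM + 0.1), and 14, 18 and 12 with the offsets. Causes of these shifts were not tested. Leaving out 1 library gave 0 to 7, 0 to 2 and 2 to 6 calls among the 10 genes and 0 to 24, 0 to 27 and 1 to 12 among the listed genes.

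In the fits with a replicate block, the 10 genes had 4, 2 and 5 calls and the listed genes 2, 11 and 3, and with the offsets and the block together 3, 0 and 2 and 7, 4 and 4. The numbers did not pair the libraries, since deviations of same-numbered libraries correlated at -0.21 to 0.44, -0.65 to 0.22 and -0.29 to 0.03 in these comparisons.

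Over all genes, the calls were 115, 256 and 556 in the reported fits, of which 80.9%, 67.2% and 45.7% were higher in the first line. With DESeq2 they were 893, 2114 and 839 (63.9%, 34.2% and 46.7% higher), and with the offsets 1558, 1276 and 1154 (50.2%, 51.8% and 46.7% higher). DESeq2 size factors gave 146, 310 and 514 calls, and total counts 211, 256 and 573. No filter on low counts gave 163, 702 and 610, and all 9 libraries in one fit 502, 1924 and 90. On log2(FPKM + 1) they were 252, 229 and 487, and on log2(FPKM + 0.1) 256, 307 and 474. The replicate block gave 92, 988 and 406, and the block with the offsets 599, 220 and 473. The calls ranged from 2 without MHCC97L replicate 3 to 2705 without MHCC97L replicate 2 in MHCC97L-Oxa against MHCC97L. With 1 library left out they ranged from 22 to 3419 in MHCC97L-Src against MHCC97L and from 167 to 1617 between the resistant lines.

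The fold changes of CD74 and HLA-DMA had 1 direction in all 16 alternatives of each comparison. The log2 fold change in MHCC97L-Oxa ranged from 2.51 to 4.49 for CD74 and from 1.94 to 2.40 for HLA-DMA. CIITA ranged from 0.20 to 1.41 in MHCC97L-Oxa, lowest on log2(FPKM + 1), and turned its sign in MHCC97L-Src in 8 of 16 alternatives (-0.41 to 0.18). The likeness of RFXAP to CD74 turned from -0.23 to 0.16 without MHCC97L replicate 1.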

Other observations

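The hepatocyte marker SERPINA1, a secreted protease inhibitor, had 1 count in each MHCC97L library, 31, 14 and 14 counts in MHCC97L-Oxa, and 22, 9 and 10 in MHCC97L-Src. Its edgeR log2 fold change in MHCC97L-Oxa was 4.14 (SE 0.64, adjusted p = 0.032). That value rests on MHCC97L counts below the floor of 3. SERPINA1 also met the filter on low counts only through the MHCC97L-Oxa libraries, so nothing is read from its p-value. In MHCC97L-Src it had too few counts for a test. CDH1, the epithelial cadherin, had log2 fold changes of -2.51 (SE 0.47, adjusted p = 0.058) and -2.13 (SE 0.51, adjusted p = 0.077) in MHCC97L-Oxa and MHCC97L-Src relative to MHCC97L, neither past the threshold. TMEM91, the gene most like CD74, had 54, 67 and 86 counts in the MHCC97L libraries, 415, 411 and 393 in those of MHCC97L-Oxa, and 212, 238 and 171 in those of MHCC97L-Src.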
